A study of Mus musculus with 27 samples.

Results

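Cytosolic ribosomal protein genes encode the proteins of the ribosome that translates nuclear-encoded mRNA, and they were followed here in mouse ovaries across age and across treatment with either of 2 inhibitors of thioredoxin reductase. Members were chosen by name and not by their values, although the family was picked with earlier results of these data known. They are the protein-coding genes whose symbol in the GENCODE M21 annotation starts with Rpl (large subunit) or Rps (small subunit) followed by a digit, together with Rpsa, Rplp0, Rplp1 and Rplp2, leaving out the Rps6k kinases and symbols of pseudogenes. Of 51789 gene IDs in the count table, 86 met this rule, 52 of them Rpl genes and 34 Rps genes. They comprise 77 core ribosomal proteins, 8 paralogs of core proteins, and Rps19bp1, a nucleolar regulator of SIRT1 that carries the prefix but is no ribosomal protein. Enough reads for a test were found for 84 members. Rpl3l, the muscle paralog of Rpl3, had 0 to 16 reads in a library, and Rpl10l, the testis paralog of Rpl10, was left out for the same reason.

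The series holds 27 libraries of ovary RNA, 1 library a mouse, in 2 experiments. Experiment 1 had 4 aged mice given TRi-1, a small-molecule inhibitor of thioredoxin reductase 1, 4 untreated aged mice and 5 untreated young mice. Experiment 2 had 4 aged mice under auranofin, a gold compound used as a drug and likewise an inhibitor of thioredoxin reductases, 5 untreated aged mice and 5 untreated young mice. No treated young mice were part of the design, and the labels name no strain, genotype, age, dose, route or length of treatment. The libraries were made with the Lexogen QuantSeq kit, which reads the 3′ end of polyadenylated RNA, so a count reports transcripts and not their length.

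Ribosomal proteins are made in step with one another, imported into the nucleolus and assembled there on ribosomal RNA, and an unassembled surplus is degraded. Their mRNAs start with a cytosine followed by a run of pyrimidines, the 5′ terminal oligopyrimidine (TOP) tract, through which mTORC1 and the RNA-binding protein LARP1 set their translation and stability. In the ovary, growing oocytes build up a large store of ribosomes, and dividing granulosa cells around them also need ribosome synthesis.

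RefSeq promoter windows (GRCm38.p6) were at hand for 66 of the 86 members and were searched for the features that define this family. A tract of C followed by at least 4 further C or T at the annotated start was found in 14 members (21.2%), against 3.01% of 27025 genes. The letters CTTTCC on the sense strand, within 20 bases of the start on either side, were found in 12 members (18.2%), against 2.3% of all genes, and 8 of the 14 tract members held both, so the features overlap. Over 300 bases on both strands, CCGGAAG, a core of ETS-family sites, was found in 26 members (39.4%) against 9.93% of genes. AAGATGG, a core of YY1 sites, was found in 10 members (15.2%) against 7.28%. Windows of 30 bases around the annotated start are shown for members whose levels are described further on, because they show the tract that marks the family. The 20 bases before the start come first, and capitals mark the tract.
Rpl35 (chr2:39005122-39005151, minus strand): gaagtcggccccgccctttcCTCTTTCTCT
Rps15a (chr7:118116138-118116167, minus strand): gcccactctctttctgccatCTTCCCTCgc
Rps6 (chr4:86857358-86857387, minus strand): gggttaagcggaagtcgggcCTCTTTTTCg
Rplp2 (chr7:141447631-141447660, plus strand): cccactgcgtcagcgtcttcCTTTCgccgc
Rps27 (chr3:90213639-90213668, minus strand): acaggatttccgctttcgctCCTTTCCggc
Rps27rt (chr9:114982730-114982759, minus strand): ggttaagaacttatcccttgCTTTCCggcg
Rpl15 (chr14:18270977-18271006, minus strand): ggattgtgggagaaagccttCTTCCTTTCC
The tracts ran from 5 to 13 bases, with the longest, 13 bases, at Rpl15, where it runs past the window shown. A member with no tract here has no such letters at the start that RefSeq annotates, which can lie some bases from the start used in the ovary.

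Library totals ran from 6460903 to 14814381 counts. Of the 12 oocyte markers looked at, such as the zona pellucida genes and Gdf9, 11 were lower in untreated aged than in young ovaries of experiment 1, where their summed level was 7.03 to 12.2 against 190 to 373 CPM (counts scaled to a common library total) and 3 of them were at 0 in all aged libraries. In experiment 2 the oocyte sum was 4.16 to 10.7 CPM in aged and 4.08 to 143 CPM in young ovaries. Granulosa markers summed to 162 to 230 CPM in aged and 741 to 1772 CPM in young ovaries of experiment 1, and to 123 to 692 against 252 to 1408 CPM in experiment 2. Theca and luteal markers of experiment 2 summed to 228 to 1534 CPM in aged and 135 to 3992 CPM in young ovaries. Among them, Hsd3b1 and Cyp11a1 were at 1.48 and 3.18 CPM in their lowest young library, against young means of 856 and 663 CPM. At least 1 young library of experiment 2 thus held few such transcripts, and it stayed in the main fits. The sum of 8 B and plasma cell markers was 10380 to 13090 against 70.9 to 115 CPM in experiment 1, and 5639 to 14040 against 57.8 to 223 CPM in experiment 2. Proliferation markers summed to 211 to 232 CPM in aged and 506 to 674 CPM in young ovaries of experiment 1, and to 166 to 264 CPM against 357 to 453 CPM in experiment 2. These markers moved with age, and the part of these markers in the results on ribosomal proteins was not tested. Fewer cells of a type and less RNA per cell cannot be told apart in whole-tissue RNA. Young replicate 3 and aged replicate 1 of experiment 1, young replicates 2 and 3 of experiment 2, and auranofin replicates 3 and 4 stood apart from the other libraries on the second principal component (11.4% of the variance). The comparisons were also computed without these 6 libraries.

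In experiment 1, ribosomal protein genes held a smaller share of all counts in aged than in young ovaries. Their summed share was 21.1, 24.0, 19.8 and 18.8% in the untreated aged ovaries, against 29.4, 33.7, 31.0, 32.7 and 28.1% in the young ovaries. All 4 aged libraries lay below all 5 young ones. The mean was 20.9% ± 2.26 (SD, n = 4) against 31.0% ± 2.29 (SD, n = 5), and the difference, aged minus young, was -10.06 percentage points (-11.08 to -9.34 when each library was left out in turn). The share of haemoglobin mRNA was 14.6% ± 5.69 in aged and 4.24% ± 2.58 in young ovaries. With those counts taken out of the totals, the share of the ribosomal protein genes was 24.5% ± 2.27 in aged and 32.3% ± 2.26 in young ovaries (SD, n = 4 and 5).

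Both subunits had smaller shares in aged ovaries. The share of the Rpl genes was 11.48% ± 1.196 in aged and 17.4% ± 1.32 in young ovaries, and that of the Rps genes 9.43% ± 1.09 against 13.6% ± 1.03 (SD, n = 4 and 5). In the TRi-1 ovaries the summed share was 19.9, 21.6, 21.7 and 20.9%, with a mean of 20.99% ± 0.819 (SD, n = 4), and every TRi-1 library lay within the range of the untreated aged ones. The difference, TRi-1 minus untreated aged, was 0.076 points (-0.64 to 1.10 when each library was left out in turn). Without haemoglobin counts, the share was 23.2% ± 0.883 in TRi-1 and 24.5% ± 2.27 in untreated aged ovaries (SD, n = 4 each). With totals scaled by TMM factors (trimmed mean of M-values), it was 19.65 to 22.23% in TRi-1 ovaries. In untreated aged ovaries it was then 22.65 to 27.01%, without overlap. How the share compared between TRi-1 and untreated aged ovaries therefore depended on the scale.

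In experiment 2 the same share was 17.7, 15.3, 19.4 and 20.6% in auranofin ovaries, 19.9, 19.1, 15.6, 19.4 and 21.3% in untreated aged ovaries and 22.3, 18.7, 19.5, 26.3 and 21.9% in young ovaries. These ranges overlapped, with means of 18.2% ± 2.29 (n = 4), 19.0% ± 2.11 (n = 5) and 21.7% ± 2.99 (n = 5). The lowest young library, replicate 2, and the next, replicate 3, are the ones that stood apart, and without them every young library lay above every aged one. The difference, aged minus young, was -2.69 points (-3.45 to -1.54 when each library was left out in turn, and -4.46 without the libraries that stood apart), and auranofin minus untreated aged was -0.81 points (-2.56 without auranofin replicates 3 and 4). The young ovaries of experiment 2 lay lower than those of experiment 1.

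**Figure D1:**
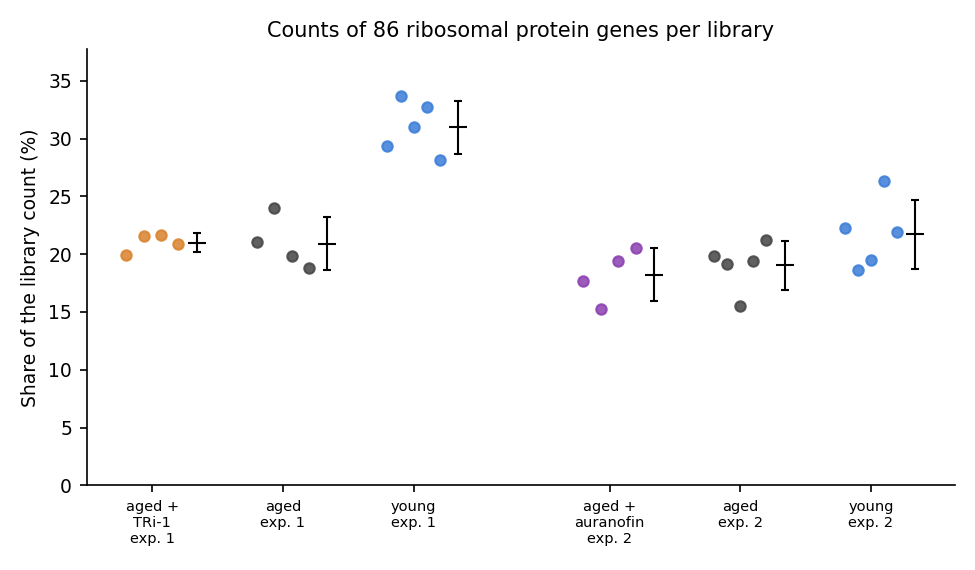
Share of each library's counts held by the 86 ribosomal protein genes (y axis, percent), with groups along the x axis, 1 point a mouse and the mean ± SD beside the points. In experiment 1 the aged libraries, treated or not, lie between 18.8 and 24.0% and the young ones between 28.1 and 33.7%, while in experiment 2 the 3 groups overlap.

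Gene by gene, the smaller share in experiment 1 was spread over most of the family. Between aged and young ovaries, edgeR's quasi-likelihood test with Benjamini-Hochberg adjustment over 16028 genes called 46 of 84 members lower and 0 higher at an adjusted p under 0.05. Of all genes tested, 34.9% were called, 16.4% lower and 18.5% higher. At an unadjusted p under 0.05, 51 members were lower and 2 higher, against 21.2% and 23.1% of genes, and DESeq2 called 48 lower and 0 higher. The median log2 fold change of the members was -0.56, against 0.02 for all genes, and 76 of the 84 lay below 0 (49.1% of genes). In 30 members every aged library was below every young one, a pattern seen in 13.4% of all genes tested, and in 0 members was it the other way round (14.2%). Of the Rpl genes tested, 29 of 50 were lower, and of the Rps genes, 17 of 34. The called log2 fold changes ran from -1.86 (Rpl23a) to -0.46 (Rpl4). Voom weights called 1 member higher and a correction for GC content and transcript length 3, against 0. With all 27 libraries in 1 fit 29 members were lower, and without young replicate 2 the count was 31.

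The largest called fall was that of Rpl23a, at the peptide exit tunnel of the large subunit. Rpl23a, which lines the tunnel mouth and docks the signal recognition particle, had 1570.3, 1635, 1355 and 1278 CPM in aged ovaries, against 3778, 6568, 7198, 4669 and 4254 CPM in young ovaries. The highest aged library was below the lowest young one. Here the log2 fold change was -1.86 ± 0.22 (SE) with an adjusted p of 2e-05, and it was called in all 16 other settings and all 13 fits that left out a library. Rpl35, its neighbour at the tunnel exit, had 136, 96.9, 85.2 and 103 CPM in aged and 148, 252, 290.1, 230.1 and 182 CPM in young ovaries, again without overlap (log2 fold change -1.07 ± 0.21 SE, adjusted p = 0.00122). Many reads of both genes can be shared with near-identical copies, which is taken up below.

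Rpl21, a core large-subunit protein, had 801, 1764, 945 and 1054 CPM in aged ovaries and 2372, 3615, 2508, 3906 and 3170.3 CPM in young ovaries. The groups did not overlap, with aged replicate 2 the nearest to the young libraries (log2 fold change -1.44 ± 0.24 SE, adjusted p = 0.000264). For Rpl27 the values were 683, 990.4, 841 and 649.9 CPM in aged and 1510.4, 2189.7, 1669.6, 2395 and 1806 CPM in young ovaries. Those groups were separate as well, and the log2 fold change was -1.27 ± 0.18 (SE) with an adjusted p of 7.77e-05. Rpl32 averaged 2167 ± 379 CPM in aged and 5053 ± 1281 CPM in young ovaries (SD, n = 4 and 5; log2 fold change -1.21 ± 0.20 SE, adjusted p = 0.000271). Rpl37, a small zinc-binding protein, averaged 5589 ± 724 against 11710 ± 2339 CPM (log2 fold change -1.06 ± 0.17 SE, adjusted p = 0.000181). Rpl26 and Rpl6 also fell, with log2 fold changes of -0.97 and -0.95 and adjusted p of 0.00118 and 0.000985 in edgeR's test. The remaining core Rpl genes that fell were Rpl35a, Rpl34, Rpl7a, Rpl12, Rpl37a, Rpl30, Rpl13, Rpl38, Rpl23, Rpl18, Rpl27a, Rpl24 and Rpl4, from -0.82 (Rpl35a, a Diamond-Blackfan anaemia gene in humans) to -0.46.

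Rpl5 and Rpl11 form a particle with 5S ribosomal RNA that, outside the ribosome, binds and inhibits Mdm2, the ubiquitin ligase of p53. Rpl5 had 2527, 2885, 2295 and 2546 CPM in aged ovaries and 4187, 5732, 4375, 5344 and 4584 CPM in young ovaries. All aged libraries were below all young ones, and the log2 fold change was -0.91 ± 0.15 (SE) with an adjusted p of 0.000211. Rpl11 had 1472, 2938, 2039 and 2286 CPM in aged and 3156, 4603, 2334, 4062 and 3576 CPM in young ovaries. Here the groups overlapped, because young replicate 3, one of the libraries that stood apart, lay below aged replicate 2 (log2 fold change -0.69 ± 0.21 SE, adjusted p = 0.0191). The Mdm2 transcript itself rose, to 52.3 ± 15.4 CPM in aged ovaries against 25.7 ± 4.14 CPM in young ovaries (SD, n = 4 and 5; log2 fold change 1.03 ± 0.20 (SE), adjusted p = 0.000895 in edgeR's test). In experiment 2 Mdm2 did not pass that test (log2 fold change 0.68 ± 0.24 SE, adjusted p = 0.0918).

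Among the 17 Rps genes that fell was Rps15a. Rps15a, whose promoter window above carries a tract of 8 bases, had 2442, 5304, 3385 and 3438 CPM in aged and 6397, 10425, 5879, 10489 and 8026 CPM in young ovaries. No aged library reached the young range (log2 fold change -1.17 ± 0.23 SE, adjusted p = 0.00118). Rps26, which lies at the channel where mRNA leaves the subunit and is a Diamond-Blackfan anaemia gene in humans, had 1939.8, 3168, 2785 and 2785 CPM in aged and 4214, 7331, 4897, 6485 and 5230 CPM in young ovaries. Its groups were likewise separate, and the log2 fold change was -1.07 ± 0.19 (SE) with an adjusted p of 0.000487. Rpsa, the laminin receptor protein of the small subunit, averaged 1549 ± 81.2 CPM in aged and 2412 ± 478 CPM in young ovaries (log2 fold change -0.64 ± 0.17 SE, adjusted p = 0.00855).

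Rps3, at the mRNA entry channel, averaged 1787 ± 218 CPM in aged and 2724 ± 402 CPM in young ovaries (SD, n = 4 and 5), and fell (log2 fold change -0.60 ± 0.15 SE, adjusted p = 0.00622). Rps14 also fell (log2 fold change -0.82 ± 0.19 SE, adjusted p = 0.0031), as did Rps4x, the X-linked form of Rps4 (log2 fold change -0.87 ± 0.19 SE, adjusted p = 0.00259). Rps6, the substrate of S6 kinase, had 1199.9, 2516, 1845 and 1812 CPM in aged and 2266, 3222, 2044, 3676 and 2900 CPM in young ovaries. Those values overlapped, and the call was close to the threshold (adjusted p = 0.0469 in edgeR's test). Rps19, the gene most often mutated in Diamond-Blackfan anaemia in humans, did not pass (log2 fold change -0.21 ± 0.17 SE, adjusted p = 0.357). Rps27a, made as a fusion with ubiquitin, did not pass either (log2 fold change -0.40 ± 0.27 SE, adjusted p = 0.276). Others among the Rps genes that fell were Rps28, Rps29, Rps3a1, Rps18, Rps21 and Rps25, with log2 fold changes from -0.83 (Rps28) to -0.52 (Rps25). Among other large-subunit proteins, Rpl13a fell (log2 fold change -0.65 ± 0.16 SE, adjusted p = 0.00422), while Rpl41, the smallest ribosomal protein, did not pass (log2 fold change -0.09 ± 0.21 SE, adjusted p = 0.778).

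The 3 genes of the stalk of the large subunit, which recruits the GTPases of translation, were not called. Rplp0, the base of the stalk, had 1969.9, 1537, 1813 and 1659 CPM in aged and 1487, 1807, 2099, 1768 and 1361 CPM in young ovaries. These ranges overlapped nearly throughout (log2 fold change 0.03 ± 0.16 SE, adjusted p = 0.895). Rplp1 had a log2 fold change of -0.24 (adjusted p = 0.265) and Rplp2 one of 0.11 (adjusted p = 0.657), in edgeR's test. Rack1, which sits on the small subunit and is no member by name, had 2421 ± 103 CPM in aged and 2550 ± 336 CPM in young ovaries (SD, n = 4 and 5) and did not pass (adjusted p = 0.732).

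The 8 members whose fold change lay above 0, none of them past the test, included Rpl8, Rps9, Rps2, Rplp2, Rps13, Rps27rt and Rplp0. Rps9, a small-subunit protein at the mRNA entry, had 2557, 3529, 3321 and 4062 CPM in aged and 2617, 2864, 1954, 3136 and 2624 CPM in young ovaries. Its groups overlapped (log2 fold change 0.36 ± 0.17 SE, adjusted p = 0.107). Rpl8, close to the peptidyl transferase centre, had 2281, 1089, 1183 and 1318 CPM in aged and 1071, 994, 1294, 1040 and 866 CPM in young ovaries. Aged replicate 1 was far above the other libraries, and the log2 fold change was 0.48 ± 0.21 (SE) with an adjusted p of 0.0916.

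Paralogs were read against their partners. Rpl22l1, which Rpl22 represses in mouse, had 125, 596, 313 and 356 CPM in aged and 639.9, 947, 254, 1104 and 779.8 CPM in young ovaries. The lowest library of each group, aged replicate 1 and young replicate 3, is one of those that stood apart (log2 fold change -1.08 ± 0.40 SE, adjusted p = 0.0439), and the call was kept in 7 of the 13 fits that left out a library. Rpl22 had 2069.8, 2348, 2010.5 and 1809 CPM in aged and 2569, 3369, 3253, 3410.4 and 2775 CPM in young ovaries, without overlap (log2 fold change -0.58 ± 0.15 SE, adjusted p = 0.00649). Both of the pair were therefore lower.

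Rpl36al averaged 682 ± 113 CPM in aged and 1279 ± 256 CPM in young ovaries (log2 fold change -0.90 ± 0.19 SE, adjusted p = 0.00145). Its partner Rpl36a averaged 3171 ± 734 against 4824 ± 999 CPM (log2 fold change -0.60 ± 0.20 SE, adjusted p = 0.03), but its fold change was 0.07 once GC content and transcript length were corrected for. Rps27l, a p53 target, and Rps27 were both called lower (-0.52 and -0.56, adjusted p 0.0381 and 0.0303 in edgeR's test). The same correction turned them to 0.24 and 0.19. Rps27rt, whose 3′ end is identical in sequence to that of Rps27, had a fold change of 0.08 (adjusted p = 0.744), and reads from the pair cannot be assigned to 1 of them.

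Rpl7l1, the paralog of Rpl7 in ribosome assembly, did not pass (log2 fold change -0.38 ± 0.19 SE, adjusted p = 0.144), whereas Rpl7 did (log2 fold change -0.57 ± 0.20 SE, adjusted p = 0.0368). Rpl39 (-0.69, adjusted p = 0.109) and its testis paralog Rpl39l (-1.43, adjusted p = 0.225, 0 to 25 reads in a library) did not pass edgeR's test. Rpl3 did not pass (adjusted p = 0.495), nor did Rps19bp1 (adjusted p = 0.829). Rpl10l was read only in young ovaries, with 7, 8, 0, 15 and 14 reads in experiment 1 and 3, 2, 0, 0 and 5 reads in experiment 2, against 0 reads in every aged and every treated library. Those counts were too low to be tested.

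**Figure D2:**
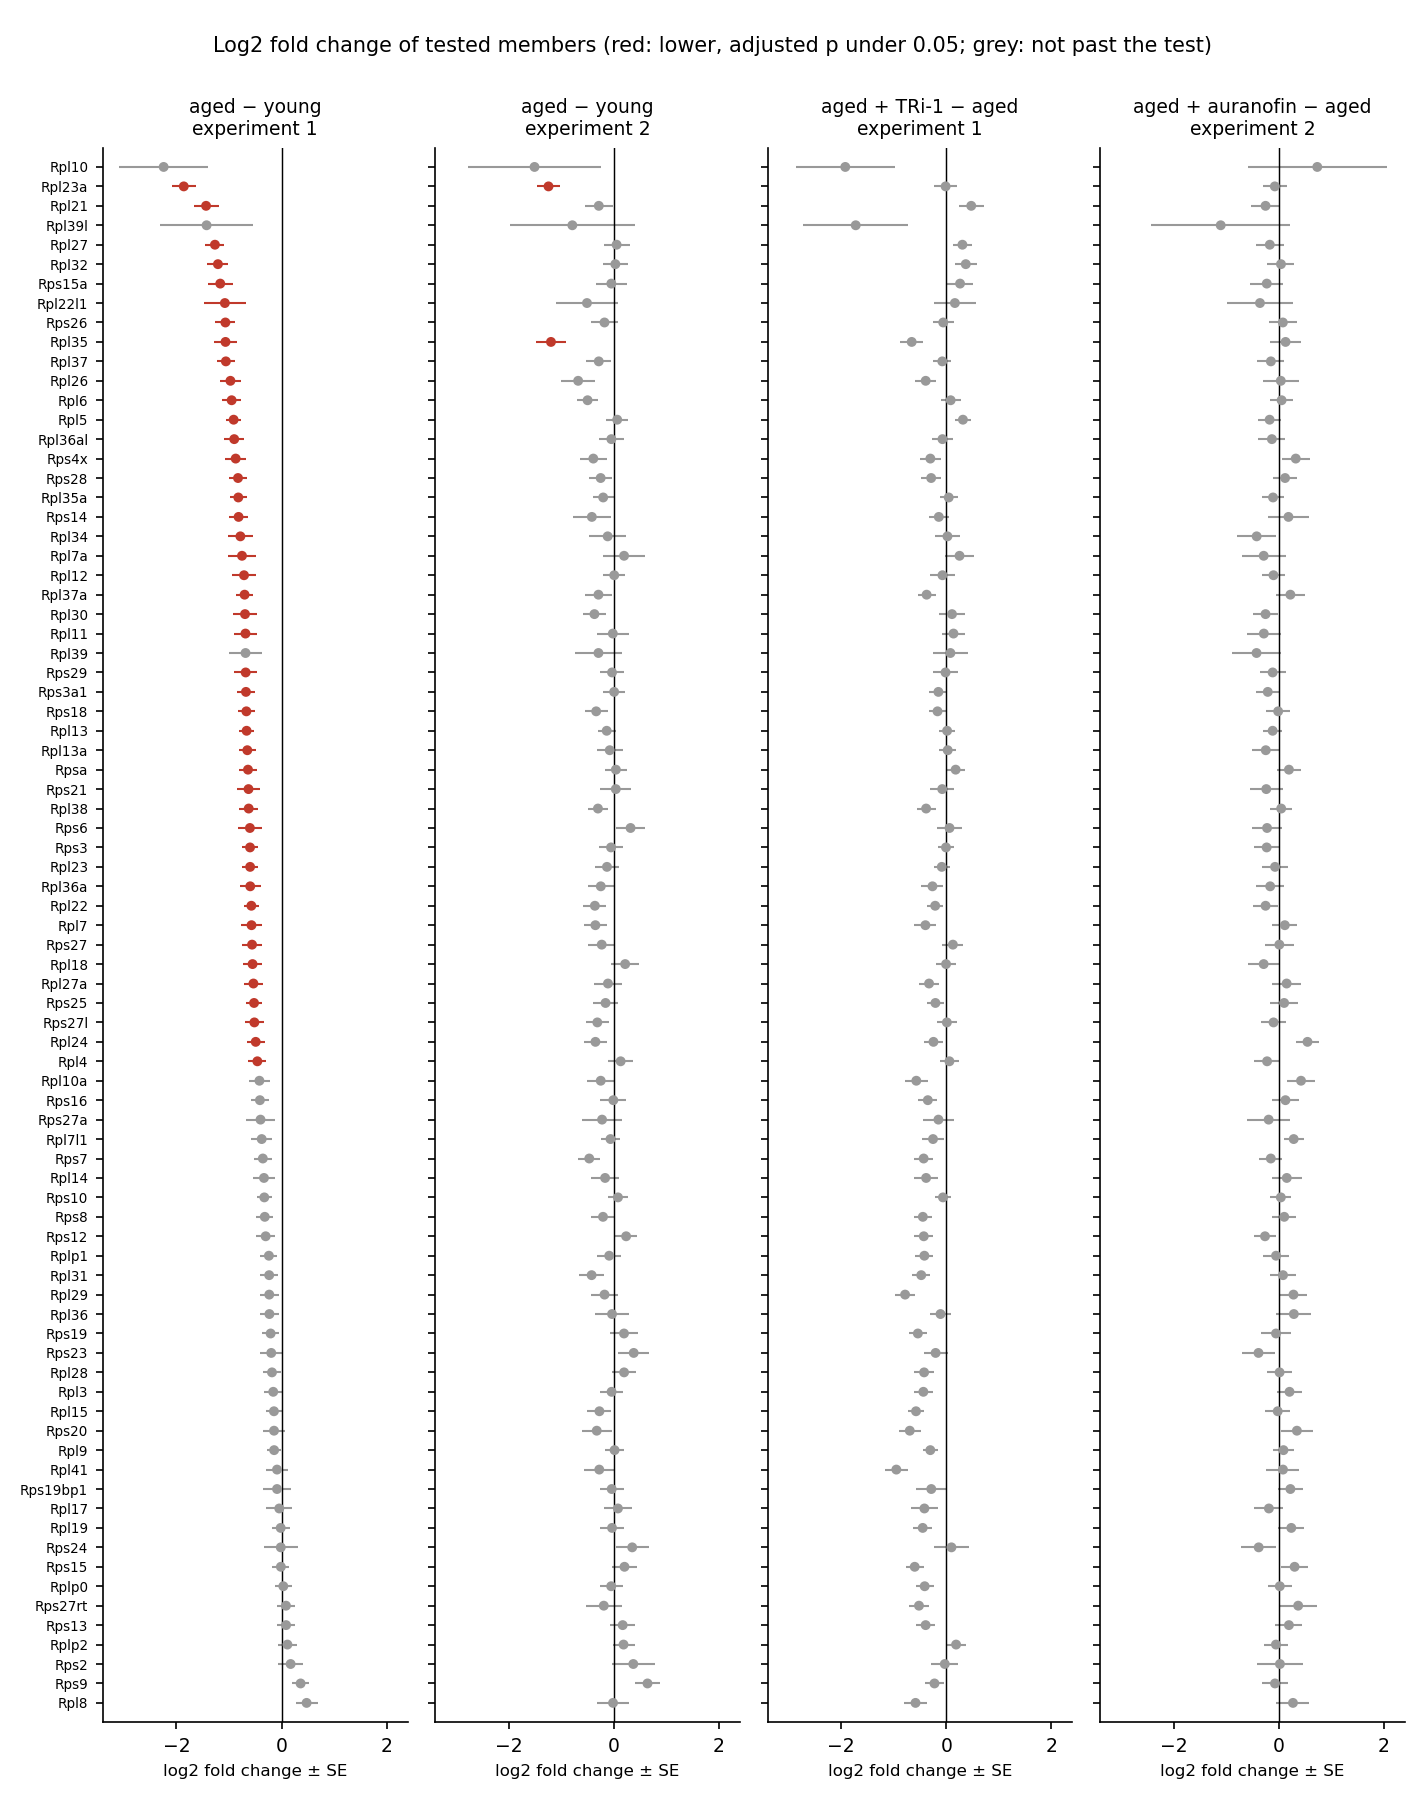
Log2 fold change of tested ribosomal protein genes (points, with SE bars), from left to right for aged over young ovaries in experiment 1 and in experiment 2, TRi-1 over untreated aged, and auranofin over untreated aged; red marks a lower level with an adjusted p under 0.05. In experiment 1 most genes lie left of 0, and over all tested members 46 were called lower, while in experiment 2 they scatter around a median of -0.12 and 2 were called lower.

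Scaling each library to the summed count of the members asks how the mix of ribosomal protein mRNAs differed, whatever their total. In aged ovaries of experiment 1, 11 members took a smaller and 15 a larger part of that total, in edgeR's test. Of all genes tested, 7.67% were lower and 34.5% higher on the same scale, which by construction raises other genes where the members' share is smaller. All 11 that took a smaller part had also fallen in CPM. They were Rpl23a (log2 fold change -1.33 ± 0.18 SE, adjusted p = 2.38e-05), Rpl21, Rpl27, Rpl32, Rps15a, Rpl37, Rps26, Rpl35, Rpl26, Rpl6 and Rpl5, 9 of them from the large subunit. Of the 15 that took a larger part, none had fallen in CPM. Both scales use the same counts, and scaling to the members moved fold changes up, so these overlaps were largely set in advance.

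Among the members gaining the most on that scale were Rpl8 (log2 fold change 0.98 ± 0.22 SE, adjusted p = 0.00168), Rps9 (log2 fold change 0.87 ± 0.18 SE, adjusted p = 0.000877), Rps2 (log2 fold change 0.67 ± 0.25 SE, adjusted p = 0.0409) and Rplp2 (log2 fold change 0.62 ± 0.20 SE, adjusted p = 0.0216). The Rpl8 and Rps9 calls held in all 13 fits that left out a library. That of Rps2 held in 7 of the 13 and was lost without young replicate 2 or 3, aged replicate 2, 3 or 4, or TRi-1 replicate 2 (adjusted p up to 0.125 in edgeR's test). Rplp2 was called in 10 of the 13, not without young replicate 2 or aged replicate 3 or 4 (adjusted p up to 0.0636), nor without the libraries that stood apart (0.58, adjusted p = 0.0603). Rplp0 gained as well (log2 fold change 0.56 ± 0.15 SE, adjusted p = 0.00708). Further ones were Rps13, Rps27rt, Rpl19, Rps15, Rpl41, Rps20, Rpl15, Rpl9 and Rpl3, with log2 changes from 0.37 to 0.61. Reads of Rps27rt cannot be told from those of Rps27, so its gain cannot be assigned to it alone. The number gaining was 8 without aged replicate 4. Across the 84 members the change on this scale had a Pearson correlation of 0.163 and a Spearman correlation of 0.132 with the GC content of the last 300 bases, as a description of genes measured in the same libraries.

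**Figure D3:**
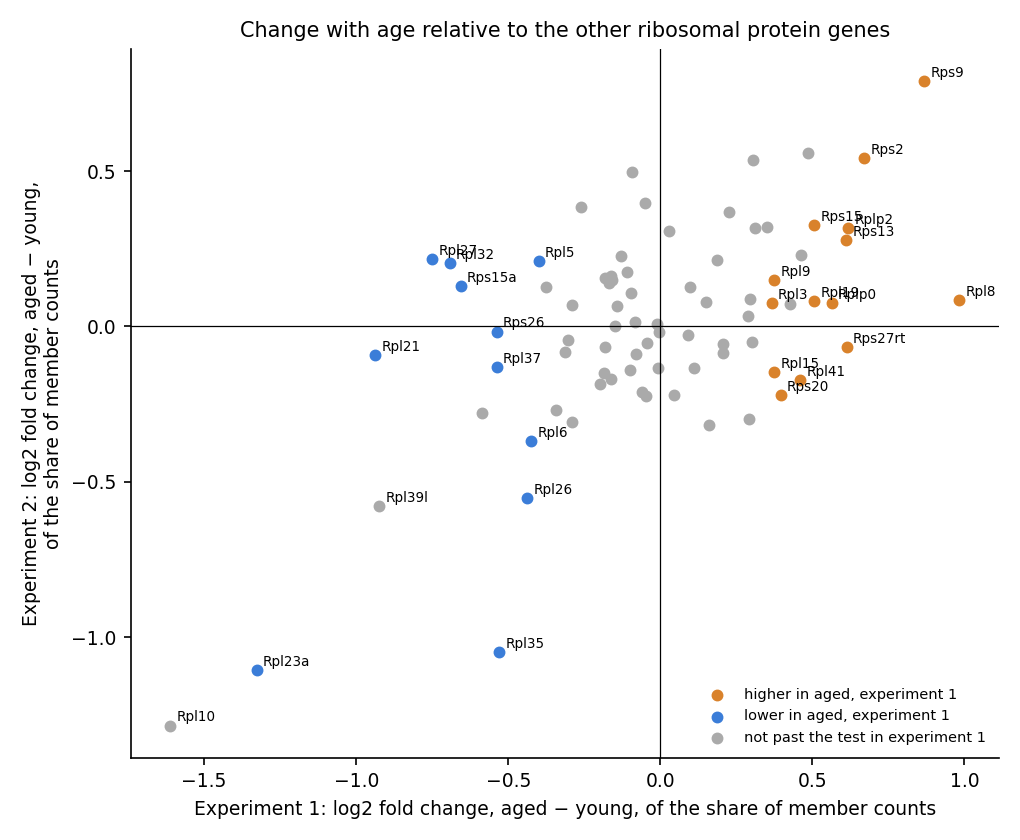
Change in each member's part of the summed ribosomal protein count between aged and young ovaries (log2), in experiment 1 (x axis) against experiment 2 (y axis), 1 point for each gene drawn. Rpl23a and Rpl35 lie low on both axes, while Rpl21, Rpl27 and Rpl32 lie low on the x axis and near 0 on the y axis.

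In experiment 2, Rpl23a and Rpl35 were the members called lower in aged than in young ovaries. Of 84 members, 2 were called lower and 0 higher by edgeR's test over 16309 genes, of which 4.59% were lower and 5.86% higher. The median fold change of the members was -0.12, against -0.03 for all genes, and 59 lay below 0 (52% of genes). At an unadjusted p under 0.05, 4 were lower and 1 higher (11.6% and 11.7% of genes), and DESeq2 called the same numbers as edgeR, 2 and 0. In 3 members, Rpl23a, Rpl35 and Rpl7, every aged library was below every young one, which held for 4.62% of all genes. In 0 members were the aged libraries all above (6.57%).

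Rpl23a had 990.2, 1396, 883, 1093 and 966 CPM in aged and 2288, 3038, 2258, 2721 and 2257 CPM in young ovaries of experiment 2. The groups were again wholly separate (log2 fold change -1.25 ± 0.22 SE, adjusted p = 0.00204), and the call held in all 15 other settings and all 14 fits that left out a library. Rpl35 had 65.0, 50.7, 44.5, 57.5 and 50.4 CPM in aged and 96.9, 165, 104, 159 and 88.2 CPM in young ovaries (log2 fold change -1.20 ± 0.29 SE, adjusted p = 0.0134). The Rpl35 groups did not overlap either. Scaled to the members' total, these 2 genes were the ones called lower (1.93% of all genes), Rpl23a (log2 fold change -1.11 ± 0.19 SE, adjusted p = 0.0022) as well as Rpl35 (log2 fold change -1.05 ± 0.24 SE, adjusted p = 0.0112), and 0 members were called higher (5.59%).

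Next by p came Rps9, Rpl6, Rps7 and Rpl26, none of which passed. Rps9 had 4066, 2662, 2846, 3077 and 4205 CPM in aged and 2577, 1257, 2123, 2771 and 2133 CPM in young ovaries. Aged replicate 2 was the one aged library inside the young range (log2 fold change 0.64 ± 0.23 SE, adjusted p = 0.0942). Rpl6 had a log2 fold change of -0.50 (adjusted p = 0.151), Rps7 -0.47 (adjusted p = 0.185) and Rpl26 -0.68 (adjusted p = 0.229).

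Several genes with large falls in experiment 1 did not pass here. Rpl27 had 839, 736, 691, 655 and 863 CPM in aged and 855, 321, 781, 1022 and 684 CPM in young ovaries, and Rpl5 had 2893, 3028, 2028, 2966 and 3104 CPM against 3096, 1867, 1962, 3629.8 and 2895 CPM. For both, the aged values lay within the spread of the young ones (0.05 and 0.06, adjusted p 0.935 and 0.904 in edgeR's test). Rpl21 (-0.29), Rpl32 (0.03), Rps15a (-0.05), Rps26 (-0.18) and Rpl37 (-0.29) did not pass, with adjusted p from 0.528 to 0.968.

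The 2 young libraries that stood apart weigh on this comparison. Rpl22l1 had 488, 234, 339.5, 181 and 355 CPM in aged and 624, 56.8, 164, 928 and 532 CPM in young ovaries, and the 2 lowest young values are those libraries. Without the 6 libraries that stood apart, 10 members were called lower in experiment 2. Among them were Rpl22l1 (-1.13, adjusted p = 0.0168), Rpl21 (-0.66, adjusted p = 0.0391), Rps7 (-0.69, adjusted p = 0.0272) and Rps27l (-0.61, adjusted p = 0.0376), beside Rpl23a (-1.198, adjusted p = 0.00064) and Rpl35 (-1.11, adjusted p = 0.0038). In experiment 1, 43 members were called lower without the libraries that stood apart. The share of all genes called without those libraries is not given here. For experiment 2, a general gain in calls therefore cannot be told from a gain among the members.

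**Figure D4:**
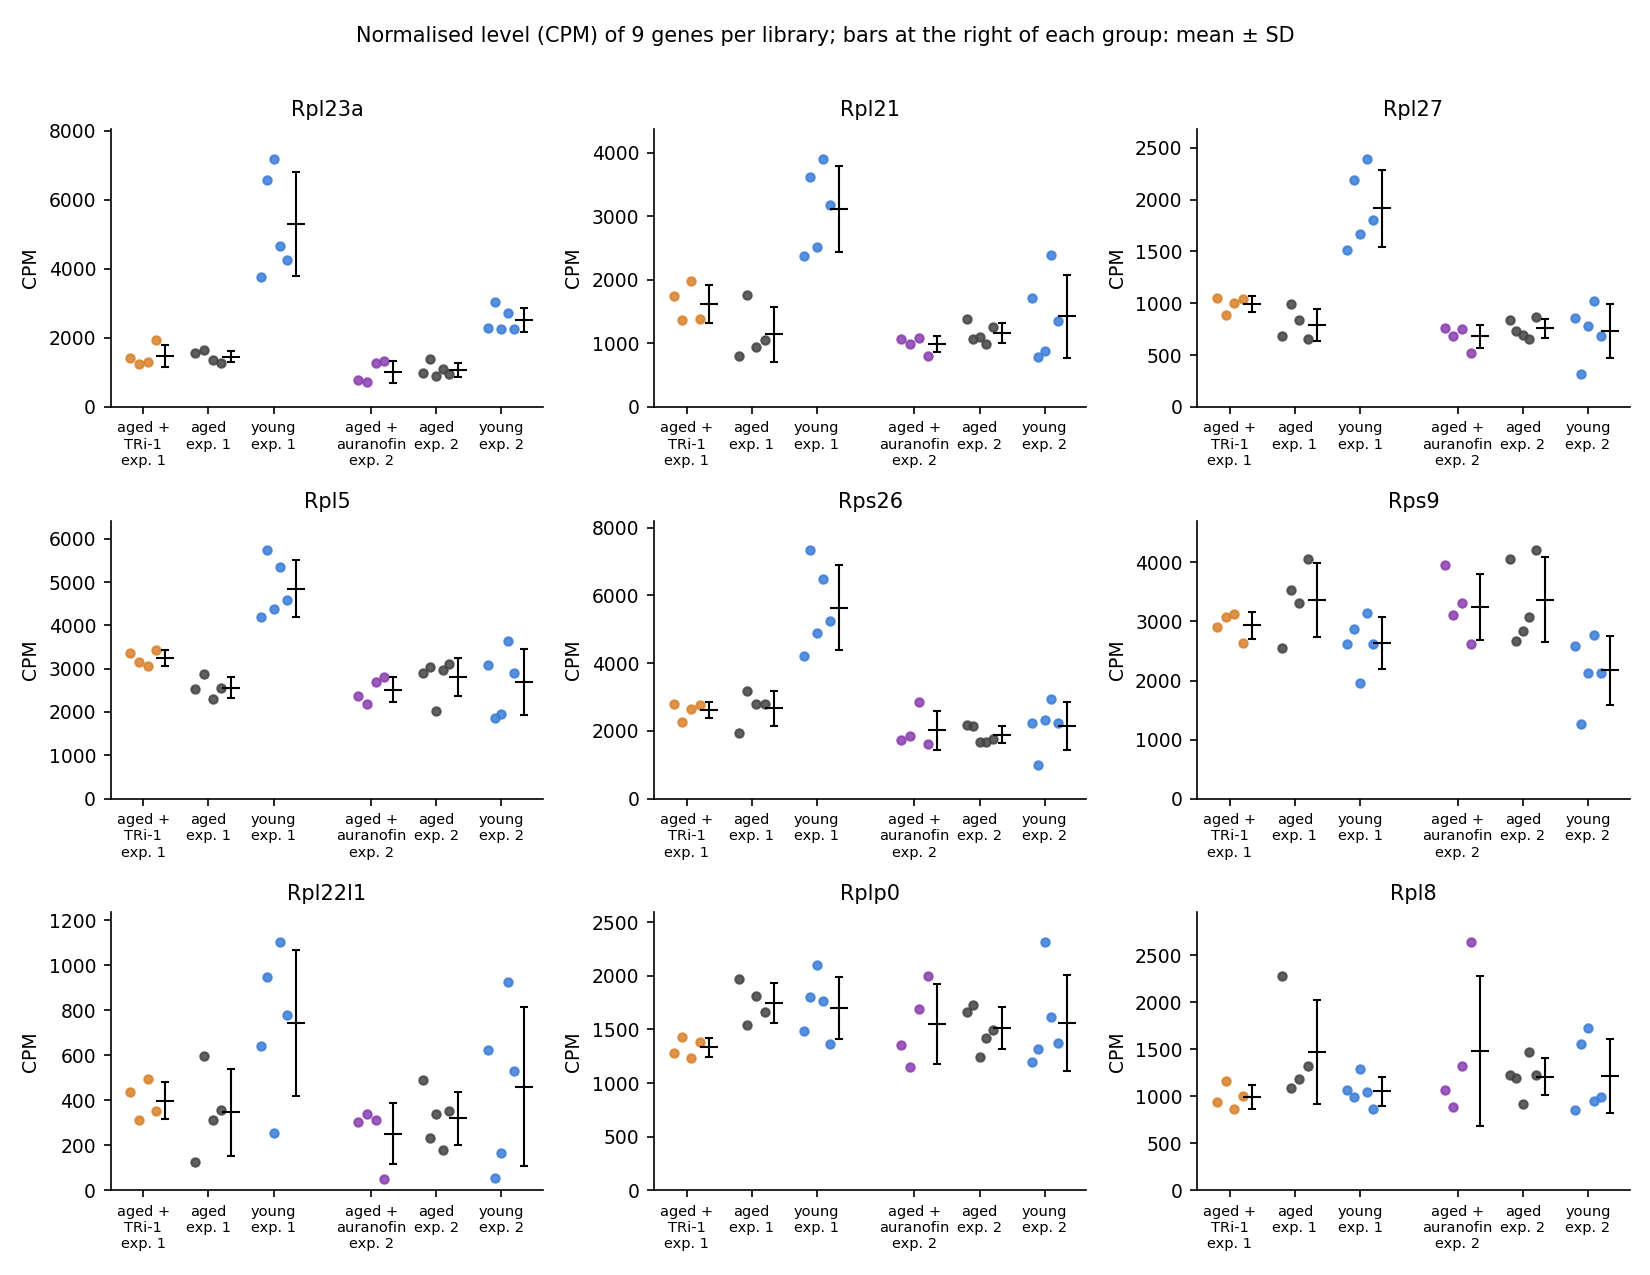
Level of 9 ribosomal protein genes in each library (y axes, CPM on a linear scale from 0), by group, 1 point a mouse with the mean ± SD. Rpl23a is lower in aged than in young ovaries in both experiments, while Rpl27 and Rpl5 are separate between the ages in experiment 1 and overlap in experiment 2.

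Shared reads bear on the 2 genes called in both experiments. Of the 86 members, 42 have rows in the table whose 3′ ends are at least 97% identical to theirs, 251 such rows in all. These rows held over 25% of the summed level in 3 members, Rpl10, Rpl23a and Rpl35, and under 5% in every group in 73 members. Rpl35 (chr2:39001580-39005624, minus strand, GRCm38) has 3 copies, the main one being Gm2000 (chr1:156366040-156366484, plus strand), a protein-coding row identical to it over the compared stretch. Rpl35's own row held 1.37 to 3.73% of the summed level, so its values describe a small part of the reads that fit it.

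With the copies added, Rpl35 had 5434 ± 1709 CPM in aged and 7460 ± 2235 CPM in young ovaries of experiment 1, and 2777 ± 731 against 3958 ± 1205 CPM in experiment 2 (SD, n = 4 and 5, then 5 and 5). The call was lost in both (log2 fold change -0.47, adjusted p = 0.127, and -0.52, adjusted p = 0.433, in edgeR's test). Rpl23a (chr11:78180932-78183584, minus strand) has 12 copies, led by Rpl23a-ps3 (chr14:34170655-34171122, plus strand), a processed pseudogene identical to it over that stretch. Its own row held 33.6 to 41.9% of the summed level in aged and 48.3 to 59.2% in young ovaries of experiment 1, and 35.5 to 42.6% against 46.5 to 63.9% in experiment 2.

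The Rpl23a sum was 4051 ± 560 CPM in aged and 10110 ± 2163 CPM in young ovaries of experiment 1, and 2680 ± 410 against 4659 ± 759 CPM in experiment 2. It fell in both (-1.32, adjusted p = 7.09e-05, and -0.80, adjusted p = 0.0176, in edgeR's test). Rpl10 had 0.983, 2.45, 14.6 and 0.167 CPM in its own row in aged and 8.80, 34.1, 35.7, 7.96 and 21.1 CPM in young ovaries of experiment 1, and that row held 0 to 0.686% of the sum over its copies. With them the level was 4360 ± 448 CPM in aged and 5576 ± 789 CPM in young ovaries.

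**Figure D5:**
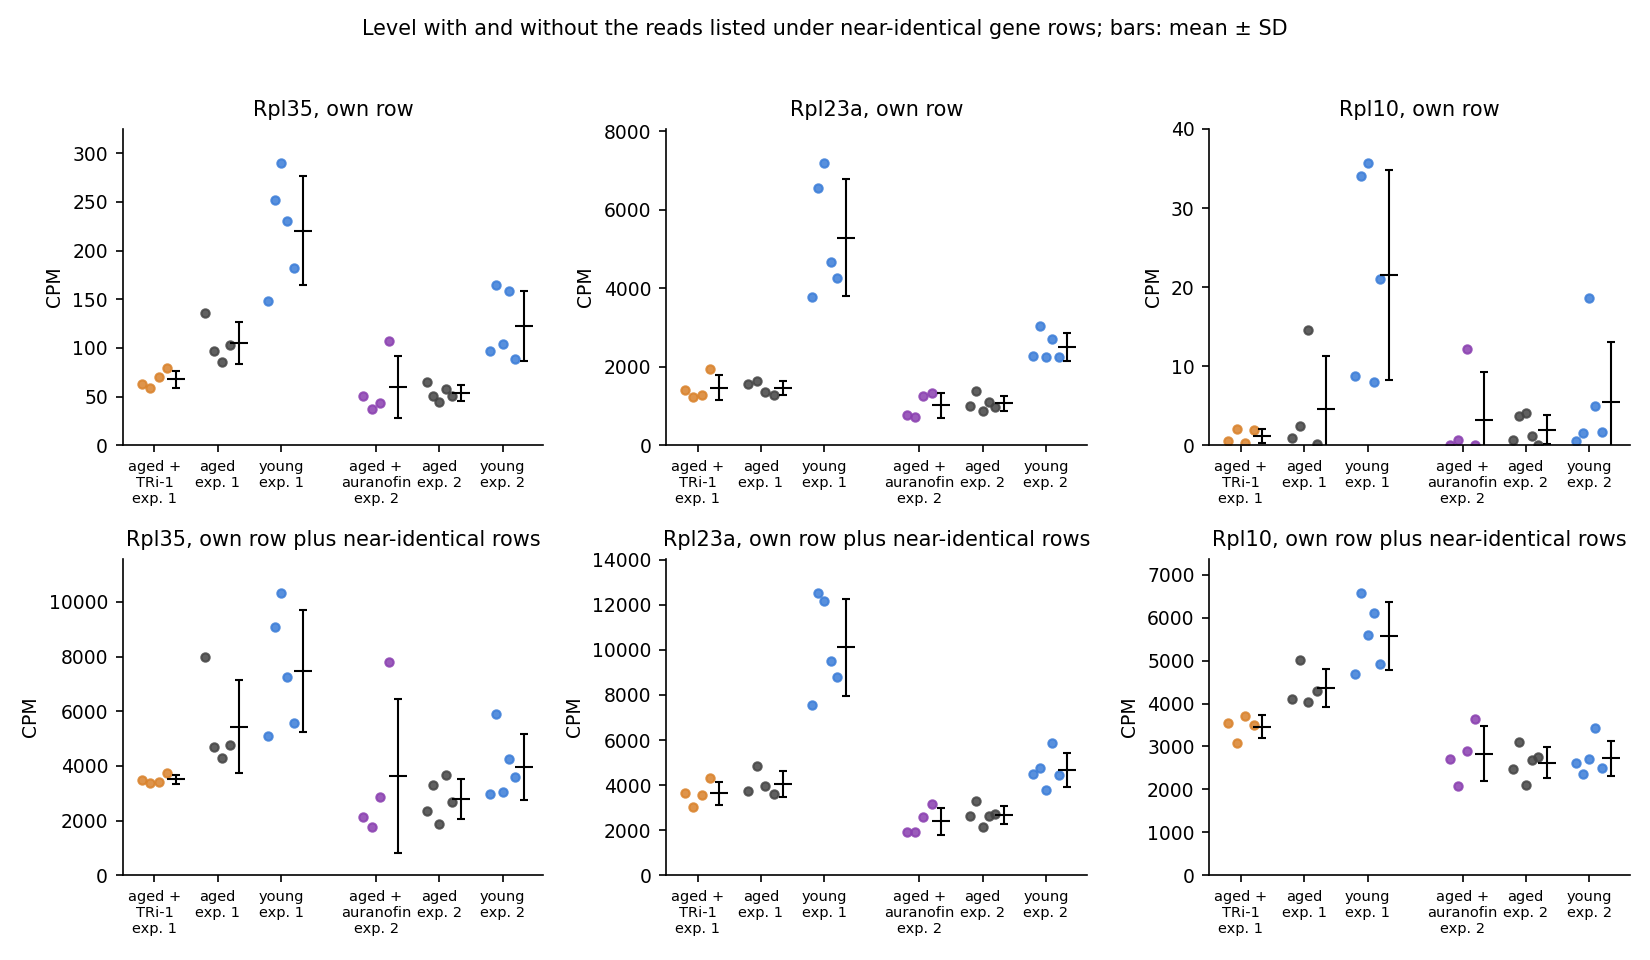
Level of Rpl35, Rpl23a and Rpl10 by group, in the gene's own row and in that row summed with the rows of near-identical 3′ end (y axes, CPM), 1 point a library with mean ± SD. The sums for Rpl23a stay apart between aged and young ovaries in both experiments, while those for Rpl35 overlap.

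A fit of both experiments together, with the effect of age averaged over them, called 31 members lower and 1 higher (17.8% and 17.5% of 17484 genes, 35.3% in all). At an unadjusted p under 0.05, 42 were lower and 2 higher (22.4% and 21.7%), and 74 lay below 0 (51.6%). Of the 31, 30 were also lower in experiment 1. Rpl23a (log2 fold change -1.56 ± 0.16 SE, adjusted p = 2.99e-08), Rpl35 (log2 fold change -1.14 ± 0.18 SE, adjusted p = 2.44e-05), Rpl21 (log2 fold change -0.88 ± 0.18 SE, adjusted p = 0.000487) and Rpl6 (log2 fold change -0.73 ± 0.14 SE, adjusted p = 0.000129) led the falls, and Rps9 was the member that rose (log2 fold change 0.49 ± 0.14 SE, adjusted p = 0.0084). The Rpl35 value is from its own row, a small part of the reads that fit it. Without the 6 libraries that stood apart, 47 members were lower and 3 higher, again with no share of all genes given for that setting. Voom weights called 2 higher.

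The test of the difference itself, the change with age in experiment 1 minus that in experiment 2, called 0 of the 84 members (0% of 17484 genes). The median difference of the members was -0.37, against 0.02 for all genes, 73 members lay below 0 (48.7% of genes), and 17 members were lower and 0 higher at an unadjusted p under 0.05, against 5.64% and 6.18% of genes. The smallest p belonged to Rpl27 (log2 fold change -1.33 ± 0.31 SE, adjusted p = 0.102), Rpl5 (log2 fold change -0.98 ± 0.25 SE, adjusted p = 0.126) and Rpl32 (log2 fold change -1.25 ± 0.32 SE, adjusted p = 0.126). DESeq2 called these 3 lower, with adjusted p of 0.0103, 0.0164 and 0.0238, and voom weights called 1 member. Across the 84 members, whose controls in the 2 experiments are different mice, the changes with age had a Pearson correlation of 0.65 and a Spearman correlation of 0.462, and 61 had the same sign, as a description over genes of the same libraries.

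No member was called under TRi-1. Between TRi-1 and untreated aged ovaries, 0 of 84 members passed edgeR's test in either direction, against 0.418% of 16028 genes. At an unadjusted p under 0.05, 25 were lower and 0 higher, against 8.72% and 7.82% of genes. The median fold change was -0.22, against -0.0031 for all genes, and 62 lay below 0 (50.3% of genes). In 26 members every TRi-1 library was below every untreated aged one (4.5% of genes), and in 1, Rpl5, every TRi-1 library was above (4.54%). Granulosa markers summed to 232 to 1830 CPM in TRi-1 and 162 to 230 CPM in untreated aged ovaries, and macrophage markers to 2108 to 3709 against 4632 to 7189 CPM. The part of these markers in the values of the ribosomal protein genes was not tested.

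Among the members with the smallest p were Rpl41, Rpl29, Rpl15, Rps15 and Rps20. Rpl41 had 5610.1, 6418, 5378 and 7337 CPM in TRi-1 ovaries and 15056, 10137, 10763 and 11143 CPM in untreated aged ovaries. The groups did not overlap, yet the test did not pass (log2 fold change -0.95 ± 0.22 SE, adjusted p = 0.0624). Rpl29 had 1297, 1084, 1393 and 1181 CPM in TRi-1 and 2379, 2084, 1955 and 1965 CPM in untreated aged ovaries. Its groups were separate too (log2 fold change -0.78 ± 0.19 SE, adjusted p = 0.065). Rpl15, which carries the longest tract of those found, had 1598, 1614, 1673 and 1603 CPM in TRi-1 and 2680.1, 2395, 2027 and 2406 CPM in untreated aged ovaries, without overlap (log2 fold change -0.58 ± 0.16 SE, adjusted p = 0.0926). The stalk genes Rplp0 and Rplp1 and the Rps genes Rps19, Rps20 and Rps15 were also among the 26 without overlap. DESeq2 called 6 members lower, with adjusted p from 0.00364 for Rpl41 to 0.0451 for Rps20, and a floor of 5 CPM on the genes tested gave 2 calls. The share of all genes called in those settings is not given here, so more calls over all genes cannot be told from more among the members. Without young replicate 3, which shares the fit, 2 members were called.

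With library totals in place of TMM factors, the medians of the members and of all genes both moved up, to 0.05 and 0.26, so that the members lay below all genes under either scaling, and 1 member, Rpl5, was called higher. Over all genes that scaling called 345 higher and 24 lower, against 28 and 39 with TMM factors. Rpl5 had 3353, 3149.6, 3055 and 3439.8 CPM in TRi-1 and 2527, 2885, 2295 and 2546 CPM in untreated aged ovaries (log2 fold change 0.32 ± 0.15 SE, adjusted p = 0.311). The members that fell the most with age in experiment 1 had fold changes of -0.01 (Rpl23a), 0.47 (Rpl21), 0.31 (Rpl27) and 0.37 (Rpl32) under TRi-1, none of them past the test. These comparisons share the untreated aged mice. Rplp0 (-0.41), Rplp1 (-0.42) and Rplp2 (0.19) did not pass, nor did Rps19 (-0.54). Scaled to the members' total, 0 members were called under TRi-1, against 0.349% of genes.

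No member was called under auranofin either. Of 84 members 0 passed in either direction, against 0.0184% of 16309 genes, and the median fold change was 0.0023, with 42 members on each side of 0 (0.02 for all genes, of which 47.9% lay below 0). DESeq2 and voom also called 0. At an unadjusted p under 0.05, Rpl24 was higher (3.82% of genes) and 0 members were lower (3.22%). It had 1660, 1276, 2210 and 2148 CPM in auranofin ovaries and 1508, 1326, 1079, 1122 and 1124 CPM in untreated aged ovaries. The 2 high values belong to the auranofin libraries that stood apart, and the log2 fold change was 0.55 ± 0.23 (SE) with an adjusted p of 0.64.

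Rpl30 was the 1 member with every auranofin library below every untreated aged one (1.53% of genes), and 0 members lay the other way round (2.01%). Its level was 1344, 1283, 1315 and 1234 CPM against 1553, 1439, 1437, 1446 and 1735 CPM. Rpl10a (0.43), Rpl7l1 (0.29), Rps23 (-0.38) and Rps4x (0.33) were among the next by p, with adjusted p from 0.804 to 0.854. Rpl23a (-0.07), Rpl35 (0.13) and Rps9 (-0.07) did not pass. Without the libraries that stood apart the median of the members was -0.23.

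The 2 inhibitors were given in different experiments, with doses and times that the labels do not state, so their effects are set side by side. The test of the difference, the TRi-1 effect minus the auranofin effect, called 0 of 84 members (0.0172% of 17484 genes were called). The median difference was -0.19, against 0.005 for all genes, with 51 members below 0 (49.7% of genes). At an unadjusted p under 0.05, 14 were lower and 0 higher, against 5.91% and 4.96% of genes. Rpl29 (log2 fold change -1.06 ± 0.33 SE, adjusted p = 0.239) and Rps15 (log2 fold change -0.90 ± 0.31 SE, adjusted p = 0.284) had the smallest p. DESeq2 and voom also called 0, and a p that misses the threshold does not show that the compounds act alike.

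Genes that work with ribosomal proteins were read from lists of the pathway. Over all genes tested, 16.4% were lower and 18.5% higher in experiment 1, and 4.59% lower and 5.86% higher in experiment 2. Of 24 translation factors with TOP mRNAs, 8 were lower and 0 higher in aged ovaries of experiment 1, with a median of -0.35. Npm1, the nucleolar chaperone nucleophosmin, had 987 ± 209 CPM in aged and 1675 ± 316 CPM in young ovaries (-0.76, adjusted p = 0.00809). In experiment 2, 3 were lower, among them Npm1 (-0.79, adjusted p = 0.00673) and Pabpc1, the poly(A)-binding protein (-1.05, adjusted p = 0.0253).

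Of 47 ribosome biogenesis genes, 19 were lower and 7 higher in experiment 1, and 2 lower and 1 higher in experiment 2. Those shares over all genes were 16.4% and 18.5% in experiment 1, and 4.59% and 5.86% in experiment 2, where the counts of the list were no higher. Nop10, a protein of the particles that pseudouridylate ribosomal RNA, had 91.3 ± 7.15 CPM in aged and 336 ± 66.9 CPM in young ovaries of experiment 1 (-1.87, adjusted p = 1.84e-05). It fell in experiment 2 as well, to 104 ± 16.2 CPM against 185 ± 32.5 CPM in young ovaries. Gtpbp4, a GTPase of large-subunit assembly, fell in both (-1.57 and -0.82), whereas Eif6, which keeps the large subunit from joining too early, rose in experiment 1 (1.10, adjusted p = 0.000489). Eif6 did not pass in experiment 2 (0.56, adjusted p = 0.347 in edgeR's test).

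Of 15 genes of RNA polymerase I, which makes ribosomal RNA, 7 were lower and 0 higher in experiment 1 (16.4% and 18.5% of all genes). They included Taf1d (-1.38), Ubtf (-1.01), Polr1a (-0.85) and Polr1d (-0.73). In experiment 2 Taf1d alone of the 15 was called (-0.97). Among 25 regulators of mTORC1 and MYC signalling, 5 were higher and 3 lower in experiment 1, near the shares over all genes (18.5% and 16.4%), and in experiment 2, 0 were higher and 1, Rps6kb1, was lower. Eif4ebp2, a repressor of cap-dependent translation, rose to 104 ± 21.9 CPM in aged ovaries against 39.9 ± 8.59 CPM in young ovaries of experiment 1. Larp4, an RNA-binding protein that stabilises poly(A) tails, fell to 38.2 ± 12.5 CPM in aged ovaries against 105 ± 15.4 CPM in young ovaries of experiment 1 (-1.46, adjusted p = 0.000163). Neither passed in experiment 2, where Eif4ebp2 had 0.28 (adjusted p = 0.36) and Larp4 -0.53 (adjusted p = 0.228) in edgeR's test.

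Larp4 was the 1 gene of these pathway lists called under TRi-1, with 96.7 ± 16.0 CPM in TRi-1 and 38.2 ± 12.5 CPM in untreated aged ovaries (1.31, adjusted p = 0.0298, SD with n = 4 each). None of them was called under auranofin. Bccip, whose human form chaperones RPL23, fell to 3.38 ± 1.11 CPM in aged ovaries of experiment 1 against 25.3 ± 8.55 CPM in young ovaries (-2.91, adjusted p = 1.69e-05). Bccip was lower with age in experiment 2 as well (-1.09, adjusted p = 0.0382 in edgeR's test). Mitochondrial ribosomal proteins, 78 genes of the separate ribosome of mitochondria, had 20 lower and 5 higher in experiment 1 (16.4% and 18.5% of all genes), with a median of -0.17, and 5 lower in experiment 2, near the 4.59% of all genes. Rows of ribosomal protein pseudogenes, 79 of 288 of them tested, had 33 lower and 0 higher in experiment 1, against the same shares of all genes, with a median of -1.41.

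Members with and without a TOP tract at the annotated start were set beside each other. In experiment 1, 8 of 14 members with a tract were lower (median -0.58), 29 of 50 with a promoter window but no tract (median -0.59), and 9 of 20 without a window (median -0.36), against 16.4% of all genes. In experiment 2 those counts were 1 of 14 (Rpl35), 0 of 50 and 1 of 20 (Rpl23a), against 4.59% of all genes. The Rpl35 call was lost once its near-identical copies were added.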

How the data were processed

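Each library is Lexogen QuantSeq 3′ sequencing of polyadenylated ovary RNA, per the labels' protocols. The authors deposited whole-number counts per Ensembl gene ID. RSEM 1.2.3, DESeq2 and mm10 are named, without their roles, in the submitters' processing notes; the aligner, strand setting and annotation are not given in the sources used here. All 27 columns were matched to samples by name, and 51596 IDs took names and positions from the GENCODE M21 annotation (GRCm38). Members, gene lists and markers were chosen with earlier results of these data known.

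Counts were filtered by expression and scaled by TMM (trimmed mean of M-values) factors, and edgeR 4.0.16's quasi-likelihood test (R 4.3.3) was fitted with 1 mean a group: the 3 groups of an experiment together, and all 27 libraries for the joint age effect and the differences between experiments. P-values were adjusted by Benjamini-Hochberg over all genes tested, with a threshold of 0.05. The script was tested on simulated counts. Printed CPM use TMM factors over all 27 libraries, and levels are not compared between genes. For the mix of members, library size was the members' summed count. The share of counts has no test. Near-identical rows were found with blastn 2.17.0, as at least 97% identity over at least 50% of the last 150 bases of the transcript. Promoter windows are from RefSeq (GRCm38.p6).

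Named genes were the 8 largest called falls and rises of a comparison, the 6 smallest p where fewer than 10 members were called, and preset paralogs, stalk genes, p53-binding genes and others of known role; from each pathway list, up to 4 called genes with the smallest p. Rpl37, Rpl30, the remaining called members and genes that changed call in another setting were named after their values were seen. A few members enter every count and fit but are not reported here by name. Alternatives were DESeq2 1.42.0, limma 3.58.1 voom with quality weights, other scalings and filters, 1 fit of all libraries, a replicate block and leaving out each library. Chosen after seeing the data were leaving out the libraries that stood apart or those with hepatocyte markers above 400 CPM, correcting GC content and transcript length, and adding the near-identical rows. Replicates are separate mice by their labels. No 2 libraries of a group agreed within sampling noise. The precision of a value comes from the spread between mice and from totals of 6460903 to 14814381 counts.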

Additional observations from a re-analysis of the deposited data

Results flagged for a closer look

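Within groups of 4 or 5 libraries, 11 values lay far from the others by Dixon's criterion at the 95% level, out of 156 groups looked at (25 members and the summed share), where chance gives about 1 in 20. No cause was tested. Auranofin replicate 4, one of the libraries that stood apart, was lowest for Rpl22l1 (51.5 CPM, the others 304 to 339), Rps27l (161 CPM, the others 201 to 207) and Rps6 (919 CPM, the others 1493 to 1515), and highest for Rps19 (4733 CPM, the others 1641 to 2116). Aged replicate 3 of experiment 2 was lowest for Rpl5 (2028 CPM, the others 2893 to 3104), Rplp1 (5733 CPM, the others 7794 to 8289) and Rps19 (1759 CPM, the others 2670 to 3022). Aged replicate 1 of experiment 2 was highest for Rpl36al (657 CPM, the others 471 to 513). Rpl10's own row, a small part of the reads that fit it, was highest in auranofin replicate 3 (12.2 CPM, the others 0 to 0.710), aged replicate 3 of experiment 1 (14.6 CPM, the others 0.167 to 2.45) and young replicate 3 of experiment 2 (18.6 CPM, the others 0.604 to 4.95).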

How the results depend on the processing

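Falls with age in experiment 1 (46 members) ranged over 29 (all 27 libraries in 1 fit) to 49 in other settings and over 31 (without young replicate 2) to 51 when each library was left out; rises numbered 0 to 2 there, 1 with voom and 3 with GC content and length corrected. Of single members, 4 results were counted as reversed, all under that correction: Rps27l (0.24), Rpl36a (0.0695) and Rps27 (0.19) in experiment 1, and Rps27l in the joint fit (0.0754). Changes of sign in values that did not pass the test were not counted, such as Rpl10 under auranofin (0.74 in the main fit, -1.60 with voom). In experiment 2 the falls (2) were 2 in every fit that left out a library, 4 with the GC and length correction, 1 with near-identical rows added and 10 without the libraries that stood apart, with 1 rise in the fit of all 27 libraries. The joint fit called 27 to 41 lower (41 without auranofin replicate 4) and 1 to 2 higher when each library was left out, 47 and 3 without the libraries that stood apart, and 2 higher with voom. Differences in the age effect gave 3 calls with DESeq2 and 1 with voom, and a median of -0.15 with the correction. For most of these settings the share of all genes called is not given, so the counts of calls are not set against it.

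Under TRi-1 the calls (0) were 2 lower with a floor of 5 CPM, 6 lower with DESeq2, 1 higher with library totals, and 0 to 2 lower when each library was left out, and the median was 0.0477 with library totals, a scaling that moved the median of all genes to 0.26. The median under auranofin was -0.23 without the libraries that stood apart. The median difference between treatments was 0.11 with library totals (0.3 over all genes), -0.0114 without the libraries that stood apart, -0.38 with the correction, and -0.28 to -0.0399 when each library was left out. In the mix of members, the changes with age in experiment 1 (15 larger, 11 smaller) ran from 8 to 19 and 8 to 13 when each library was left out. In experiment 2 there were 0 to 1 larger when each library was left out, 5 without the libraries that stood apart, and 1 smaller with near-identical rows added. Under TRi-1 0 to 1 were larger when each library was left out. The causes were not tested. Among the other values, 872 summary values and 12202 single-member values were counted as the same, while 119 single-member values lost and 145 gained a call. Values counted as the same include some that changed sign without passing the test.

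Replicate numbers were not taken to pair the mice: of 25 same-numbered pairs 6 had a correlation of deviations above 0.1 (range -0.25 to 0.43). Pairs of different number are not given here, so whether the numbers mark shared handling was not tested. With the replicate block, 35 members fell in experiment 1, 2 in experiment 2 and 32 in the joint fit, and 8 gained and 7 lost part of the mix in experiment 1. Intervals from 4 or 5 mice a group limit what can be seen: the median standard error of a member's log2 fold change was 0.18 in experiment 1 and 0.25 in experiment 2.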
